A study of Mus musculus with 30 samples.

Results

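The vascular endothelial growth factors (VEGF) and their receptors were followed in cultured cells that carry the label of mouse leg muscle, as 6 of the 18194 genes with a probe set of their own: the ligands Vegfa, Vegfb, Vegfc and Pgf, and the receptors Flt1 and Kdr. Genes were selected on the Vegfc intensities at 12 h against 0 h and on membership of the pathway, and every probe set of the A and B chips of an Affymetrix set annotated to 1 of them and to no other was taken. This gave 12 of 45137 probe sets, 9 on A and 3 on B. There were 4 for Flt1, 3 for Vegfc, 2 for Vegfa, and 1 each for Vegfb, Pgf and Kdr. RNA was measured at 0, 4, 12, 24 and 48 h with 3 replicates at each hour on each chip, 30 arrays in all. The labels give no medium, treatment, strain, age or event at 0 h, and they do not say that replicates were separate cultures. The p-values therefore rest on a spread between arrays that may be purely technical. The number of arrays limits the precision, since 0.1 is the smallest two-sided p that exact permutation can give with 3 arrays against 3.

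VEGF ligands are secreted dimers that bind receptor tyrosine kinases, mainly on the cells that line blood and lymphatic vessels. VEGF-A is the chief driver of blood vessel growth and acts through KDR (VEGFR-2), while FLT1 (VEGFR-1) binds VEGF-A, VEGF-B and placental growth factor (PGF). VEGF-C acts mainly on FLT4 (VEGFR-3) and drives the growth of lymphatic vessels. In muscle, fibres release VEGF-A, and the neighbouring endothelium carries the receptors.

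The choice of genes was not blind. Vegfc was the only gene called at 12 h against 0 h in an earlier test of these data, so its values at 0 and 12 h are given as a description, with no test. Its differences from 0 h at other hours share those 0 h arrays and are treated in the same way. The differences among 4, 24 and 48 h did not enter that choice and were tested. Their standard error (SE) did enter it, since the fit gives each probe set a common spread for all hours. On 1439766_x_at of Vegfc the SE was 0.27 both at 12 h against 0 h and at 24 h against 4 h. A call at 12 h favours a probe set with a small spread, so the Vegfc p-values are not independent of the choice. Tests used limma on log2(intensity + pseudocount) over all probe sets bright enough to enter, with Benjamini-Hochberg adjustment within each chip, and calls were made below an adjusted p of 0.05. Of the 12 probe sets, 8 passed the filter on dim values: those of Vegfa, Vegfb, Vegfc and Kdr, and 1451756_at of Flt1. The Pgf probe set and the other 3 of Flt1 did not.

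The 250 bases before the start of Vegfc and before the first listed start of Vegfa are shown to set the promoter of the ligand that changed beside that of one that did not pass the test. They were taken from RefSeq on GRCm38.p6, and all 6 genes had an entry. Capitals mark the GC box GGGCGG on either strand, the binding motif of SP-family factors.
Vegfc (chr8:54077282-54077531, + strand): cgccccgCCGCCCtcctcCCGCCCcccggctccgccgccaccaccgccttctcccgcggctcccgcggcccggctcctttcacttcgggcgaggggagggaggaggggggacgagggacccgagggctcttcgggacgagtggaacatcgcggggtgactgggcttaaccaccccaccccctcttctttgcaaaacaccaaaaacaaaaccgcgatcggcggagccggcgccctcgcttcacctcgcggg
Vegfa (chr17:46032378-46032627, - strand): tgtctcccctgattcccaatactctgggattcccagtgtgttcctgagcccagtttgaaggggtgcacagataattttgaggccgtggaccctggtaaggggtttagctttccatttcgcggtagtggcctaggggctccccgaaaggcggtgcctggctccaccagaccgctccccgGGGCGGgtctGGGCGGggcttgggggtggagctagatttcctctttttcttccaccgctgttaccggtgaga
The Vegfc stretch was 71.6% G or C and held 2 GC boxes. The Vegfa stretch was 59.2% G or C and also held 2. Among 32851 mouse promoter stretches of this length, 32.7% held at least 1 GC box. Neither stretch held the hypoxia response core (ACGTG or GCGTG, searched on both strands), which was in 38.6% of stretches, an E-box (CANNTG, in 66.2%) or TATAAA (in 12.4%). The stretch before the second listed start of Vegfa, not printed, held 2 hypoxia response cores, 2 E-boxes and 1 GC box. It lies downstream of the first start, inside the gene (chr17:46025164-46025413, - strand), and was not shown to be a promoter. A match is a run of letters and not a shown binding site.

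The replicate 3 arrays stood apart from those of replicates 1 and 2, so values are also given for replicates 1 and 2 alone where a call depends on it. On every array the 2%-trimmed mean was 500.1 to 500.2 on both chips, since whole arrays had been scaled to a common level. The labelled tissue was checked against 12 skeletal muscle markers, all of which were tested. They included Acta1 (mean intensity 13380) and Myog (mean intensity 10504), and their summed intensity was 64219 to 69863 at 0 h, 92094 to 102980 at 24 h and 65345 to 113567 at 48 h, where replicate 3 was the lowest. Of 20 endothelial markers, 6 were bright enough to be tested, and Mmrn2 (mean intensity 499.6), Ptprb (319.1) and Eng (219.5) were the brightest. Another 5 had means below the pseudocount of their chip: Tie1 (1.99), Vwf (2.67), Icam2 (8.68), Erg (9.77) and Plvap (20.8). Pecam1 and Cdh5, which define endothelium, had mean intensities of 32.7 and 42.9, near the A chip pseudocount of 29. In bulk RNA, fewer cells of a type and less RNA per cell cannot be told apart.

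Vegfc fell between 4 h and the later hours on all 3 of its probe sets. At 24 h its intensity was 3.54 to 5.32 times lower than at 4 h, and at 48 h it was 2.94 to 3.86 times lower than at 4 h. It did not change by a called amount between 24 and 48 h.

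On the A chip, probe set 1419417_at of Vegfc had intensities of 537.4, 527.7 and 342.5 at 0 h and 356.6, 495.7 and 280.5 at 4 h. It then had 141.2, 191.9 and 91.5 at 12 h, 101.3, 101.5 and 69.1 at 24 h, and 107.2, 123.2 and 62.7 at 48 h. The 0 and 4 h arrays overlapped, and all 9 later arrays lay below all 6 of these. The brightest probe set, 1440739_at on B, had 9802, 10486 and 6649 at 0 h and 7297, 8165 and 4752 at 4 h. It had 2928, 2741 and 2240 at 12 h, 2128, 2027 and 1557 at 24 h and 2980, 2665 and 1241 at 48 h. Again every array from 12 h on was lower than every array at 0 and 4 h. The third, 1439766_x_at on B, had 2332, 2088 and 1463 at 0 h and 1992, 1809 and 1072 at 4 h. It had 623.7, 474.6 and 308.8 at 12 h, 356.9, 326.2 and 233.3 at 24 h, and 430.1, 448.7 and 390.8 at 48 h. Its 6 arrays at 0 and 4 h were 1072 or more and its 9 later arrays 623.7 or less. Such a separation, all later arrays below all earlier ones, was found in 0.376% of tested A and 0.244% of tested B probe sets. It includes the 0 and 12 h arrays on which Vegfc was chosen, so these shares are a description and no support.

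**Figure D1:**
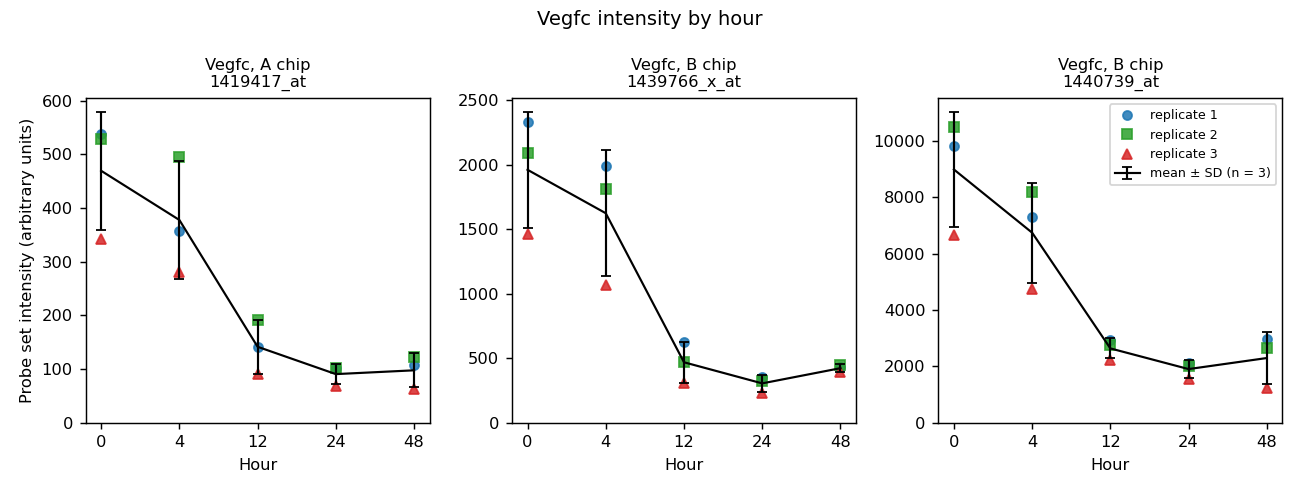
Intensity of the 3 Vegfc probe sets (vertical axis, arbitrary units, from 0) against hour (evenly spaced categories), with a point for each array, shaped by replicate, and the mean ± SD over 3 arrays as a line with bars. On each probe set all 9 arrays at 12, 24 and 48 h lie below all 6 at 0 and 4 h, and replicate 3 is the lowest at every hour.

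The order of the hours by mean was the same on all 3 Vegfc probe sets: 0 h, 4 h, 12 h, 48 h, 24 h, high to low. On 1440739_at the means were 8979 ± 2047 at 0 h, 6738 ± 1774 at 4 h, 2636 ± 355.6 at 12 h, 1904 ± 304.4 at 24 h and 2295 ± 926.4 at 48 h (SD, n = 3 each). Neighbours in that order overlapped between 0 and 4 h and between 12 and 48 h, and did not overlap between 4 and 12 h. The 12 h arrays entered the choice of Vegfc, and the share of all probe sets parted between 4 and 12 h was not counted. The 48 and 24 h arrays overlapped on 2 probe sets, and on 1439766_x_at the 48 h arrays were all above the 24 h arrays. The latter was common, found in 9.78% of tested B probe sets. Measured against the 0 h mean, the 3 probe sets stood at 75.0 to 82.8% at 4 h, 23.9 to 30.2% at 12 h, 15.6 to 21.2% at 24 h and 20.8 to 25.6% at 48 h.

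At 24 h against 4 h the log2 difference of Vegfc was -1.74 on 1419417_at (SE 0.28, limma adjusted p = 0.00962), -2.19 on 1439766_x_at (SE 0.27, limma adjusted p = 0.00493) and -1.77 on 1440739_at (SE 0.29, limma adjusted p = 0.0228). All 3 passed the test, each lower in 3 of 3 replicates, with an SE shared with the comparison on which Vegfc was chosen. Over the whole chip, lower calls made up 0.435% on A and 0.104% on B in this comparison, and calls in either direction 1.38% on A and 0.533% on B. Ranked by p, 1439766_x_at was number 2 of 13507 B probe sets. Arrays at 24 h lay wholly below those at 4 h in 9.47% of A and 7.31% of B probe sets.

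At 48 h against 4 h the differences of Vegfc were -1.68 on 1419417_at (limma adjusted p = 0.0111), -1.77 on 1439766_x_at (limma adjusted p = 0.0156) and -1.59 on 1440739_at (limma adjusted p = 0.0262). Over the whole chip, lower calls made up 0.354% on A and 0.155% on B, and calls in either direction 1.12% and 0.415%. Arrays at 48 h lay wholly below those at 4 h in 6.5% of A and 6.77% of B probe sets. At 48 h against 24 h the differences were 0.06, 0.42 and 0.18 in the same order, with adjusted p-values of 0.964, 0.556 and 0.856 from limma. The 95% intervals there ran from -0.53 to 0.65, from -0.15 to 1.00 and from -0.44 to 0.80. Called probe sets were few in that comparison, 0.0147% on A and 0.126% on B.

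The calls at 48 h depended on single arrays. Without the 4 h array of replicate 1 or 2, or the 48 h array of replicate 1, none of the 3 Vegfc probe sets was called at 48 h against 4 h (limma adjusted p 0.0502 to 0.145), nor was any in a fit of only the 6 arrays compared (0.0815 to 0.180). Without the 48 h array of replicate 2, 1 of 3 was called. At 24 h against 4 h, 1440739_at was lost without replicate 1 or 2 of either hour (adjusted p 0.0864 to 0.104), and 1419417_at without the 4 h array of replicate 2 (adjusted p = 0.0681).

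**Figure D2:**
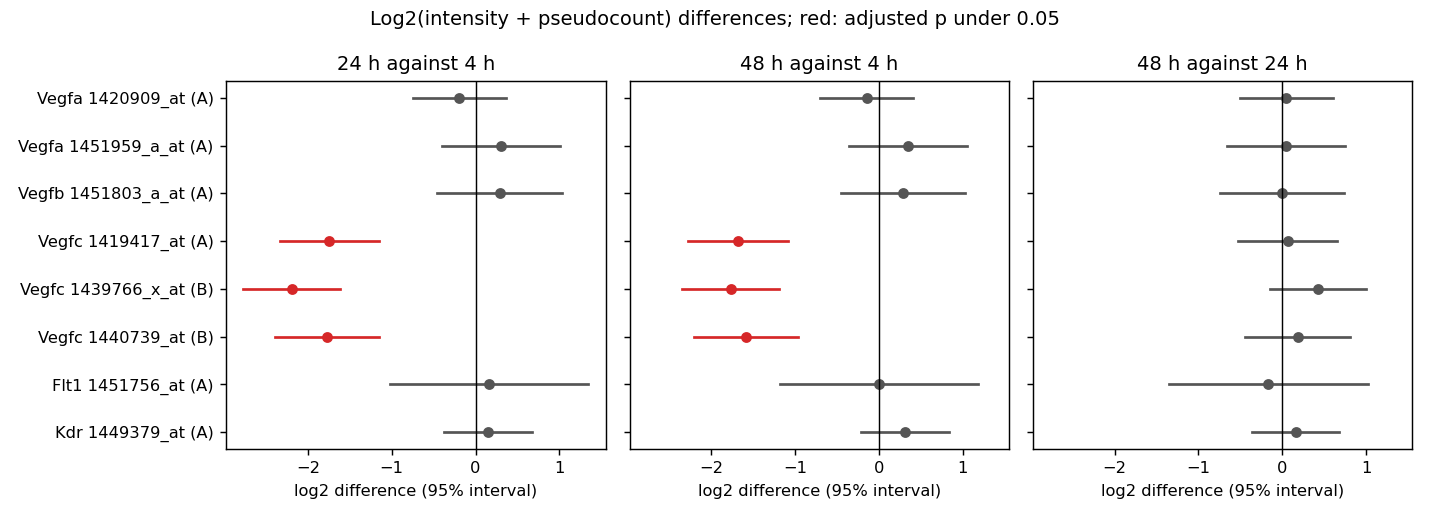
Log2 differences of the 8 tested VEGF probe sets (horizontal axis, log2 of intensity plus pseudocount) with 95% intervals, for 24 h against 4 h, 48 h against 4 h and 48 h against 24 h. The 3 Vegfc probe sets, in red for an adjusted p under 0.05, lie between -2.19 and -1.59 against 4 h, and all 8 intervals cross 0 for 48 h against 24 h.

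As a description, Vegfc at 12 h against 0 h had log2 differences of -1.56 on 1419417_at, -1.97 on 1439766_x_at and -1.73 on 1440739_at. Of these, 1439766_x_at was the one called in the choice of the genes, and the other 2 were not called. In all, 1 probe set was called on B, 0.0074% of those tested, and 0 on A. Against 0 h the same 3 stood at -0.30, -0.28 and -0.42 at 4 h, at -2.04, -2.48 and -2.19 at 24 h, and at -1.98, -2.05 and -2.01 at 48 h. These comparisons share the 0 h arrays.

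The 3 Vegfc probe sets moved together. Over the 15 hour and replicate labels the Pearson correlation of their log2 values was 0.961 to 0.980, across 2 chips. The labels do not say whether the A and B arrays of a label carried the same RNA. Replicate 3 had the lowest Vegfc value at 5 of 5 hours on each probe set, with means 0.631 to 0.642 times those of replicates 1 and 2. At 24 h against 4 h, the log2 difference of 1419417_at was -1.57, -2.01 and -1.66 within replicates 1, 2 and 3. In replicates 1 and 2 alone all 3 probe sets were called at 24 h and at 48 h against 4 h. Calls were also more frequent over the chips in that fit, at 12.7% of A and 5.98% of B probe sets at 24 h and 10.8% and 5.2% at 48 h.

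Marker sums of other cell types were given beside this fall. The 20 endothelial markers summed to 1649 to 2151 at 4 h, 1617 to 2021 at 24 h and 1554 to 1946 at 48 h, ranges that overlap, and none of the 6 tested was called at 24 or 48 h against 0 h in limma (1 had an unadjusted p under 0.05 at each hour). That gene was Lmo2 (mean intensity 142.1), at log2 differences of -1.34 at 24 h (adjusted p = 0.122) and -1.35 at 48 h (adjusted p = 0.140). The 6 lymphatic endothelial markers measured summed to 1443 to 1999 at 24 h and 1561 to 1995 at 4 h. The brightest was Pdpn (mean intensity 1091), and Lyve1 was dim (38.4). Of 12 macrophage markers 3 were tested and 6 had means below the pseudocount, including Ptprc (17.8) and Cd163 (8.73), and the brightest was Cd14 (182.8). Of 10 fibroblast markers 3 were tested and 1 had a mean below the pseudocount, and the brightest was Col3a1 (2906). The 10 summed to 3541 to 4994 at 4 h, 2616 to 5135 at 24 h and 2911 to 4936 at 48 h. Over replicates 1 and 2 the mean fibroblast sum was 4611 at 4 h, 2630 at 24 h and 3039 at 48 h, while replicate 3 had 3541, 5135 and 4936 at the same hours. Of 10 pericyte and smooth muscle markers 6 were tested and 2 had means below the pseudocount, and the brightest was Acta2 (12650). The 10 summed to 15725 to 21951 at 4 h, 17257 to 18188 at 24 h and 10567 to 14602 at 48 h. The 48 h sums lay below the 4 h sums, and Acta2 was called lower at 48 h against 4 h (log2 difference -0.68, limma adjusted p = 0.0202). Single genes of that list differed from the sum. Abcc9 (log2 difference 1.55, limma adjusted p = 0.0205) and Smtn (1.24, limma adjusted p = 0.0469) were called higher at 24 h against 4 h. Rgs5, a pericyte marker, had means of 1701 at 4 h, 450.2 at 24 h and 390.7 at 48 h. Notch3 had 840.6, 494.0 and 389.0 at those hours. Neither was called at 24 h against 4 h (log2 differences -1.87 and -0.53, limma adjusted p 0.640 and 0.740). The part of these cells in the Vegfc result was not tested.

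Vegfa, the main blood vessel ligand, was present at moderate intensity and was not called in any comparison tested over all arrays. The same held for Vegfb, Kdr and Flt1. None of these 5 probe sets had an unadjusted p under 0.05 in limma in a comparison tested, which leaves out 12 h against 0 h, and the smallest was 0.208. Its probe set 1420909_at had 528.3, 414.1 and 256.8 at 0 h, 398.5, 392.2 and 260.0 at 4 h and 364.5, 401.0 and 269.9 at 12 h. It had 279.4, 313.3 and 299.5 at 24 h and 231.2, 296.5 and 424.2 at 48 h. Replicate 3 was the lowest at 0, 4 and 12 h and the highest at 48 h, and all hours overlapped with their neighbours in order. The other probe set, 1451959_a_at, ran from 194.9 to 563.1 over the 15 arrays, and both of these extremes were in replicate 3, at 0 and 24 h. Its hour means were 357.0 ± 140.5 at 0 h, 318.7 ± 108.2 at 4 h, 276.5 ± 96.0 at 12 h, 404.1 ± 151.5 at 24 h and 400.0 ± 10.04 at 48 h (SD, n = 3 each).

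The log2 difference of Vegfa at 24 h against 0 h was -0.34 on 1420909_at (95% interval -0.90 to 0.21, limma adjusted p = 0.569). It was 0.18 on 1451959_a_at (95% interval -0.52 to 0.89, limma adjusted p = 0.844). At 48 h against 0 h the 2 probe sets gave -0.29 and 0.23. Calls made up 0% of A probe sets at 4 h, 2.67% at 24 h and 2.15% at 48 h against 0 h. The hours of Vegfa differed between replicates. In replicates 1 and 2 alone, 1420909_at was called lower at 24 h (log2 difference -0.61, limma adjusted p = 0.0361) and at 48 h (log2 difference -0.77, limma adjusted p = 0.0134). That fit called 15% of A probe sets at 24 h and 12.4% at 48 h against 0 h. In replicate 3 the same differences were 0.20 and 0.67. The other probe set of Vegfa gave -0.42 and -0.10 in replicates 1 and 2, lower at both hours as well, but was not called.

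Vegfb, a ligand of FLT1 with a role in fatty acid uptake, differed more between replicates than between hours. Probe set 1451803_a_at had 222.3, 297.6 and 549.5 at 0 h, 277.2, 267.9 and 508.5 at 4 h and 320.0, 287.1 and 578.7 at 12 h. It had 342.1, 371.5 and 572.8 at 24 h and 311.6, 410.6 and 563.0 at 48 h. Replicate 3 was the highest at 5 of 5 hours, at 508.5 to 578.7 against 222.3 to 410.6 in replicates 1 and 2, a ratio of means of 1.78. This is the opposite order to Vegfc, which was lowest in replicate 3. The hour means of Vegfb spanned a factor of 1.22. The log2 difference was 0.30 at 24 h against 0 h (95% interval -0.44 to 1.05, limma adjusted p = 0.729) and 0.30 at 48 h (95% interval -0.44 to 1.04).

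Pgf, which binds FLT1 alone among the VEGF receptor kinases, was near the bottom of the A chip. Its 15 values ran from 9.1 to 81.7, at the 17.2 percentile of A probe sets by mean. The 3 highest were all in replicate 3, at 4 h (65.2), 12 h (81.7) and 24 h (39.9). It was not tested.

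**Figure D3:**
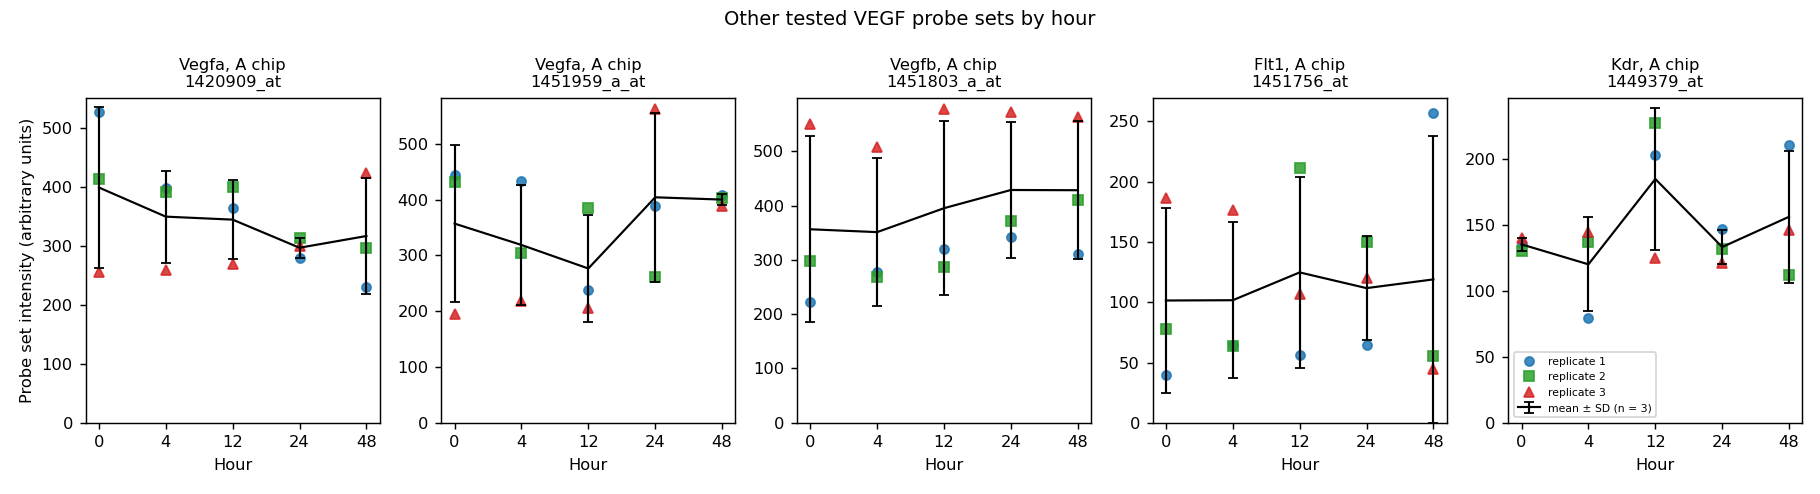
Intensity of the tested probe sets of Vegfa, Vegfb, Flt1 and Kdr (vertical axes, arbitrary units, from 0) against hour (evenly spaced categories), with a point for each array and the mean ± SD over 3 arrays. Hours next to each other in the order of their means overlap on every probe set. On Vegfa 1451959_a_at the 12 h arrays (385.8 or less) lie below the 48 h arrays (388.9 or more). The share of all probe sets parted in this way was not counted. For Vegfb replicate 3 lies at 508.5 or more while replicates 1 and 2 lie at 410.6 or less.

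Of the receptors, Kdr, the main signalling receptor for VEGF-A, had intensities of 135.7, 130.1 and 140.0 at 0 h, 79.1, 136.8 and 144.5 at 4 h and 202.7, 227.1 and 124.7 at 12 h. It had 147.2, 131.6 and 120.9 at 24 h and 210.8, 112.0 and 145.8 at 48 h. The means lay between 120.1 ± 35.7 at 4 h and 184.8 ± 53.5 at 12 h, and arrays of the neighbouring hours in that order overlapped. No Kdr difference that the choice left free was called. At 24 h against 0 h it was -0.02 (95% interval -0.54 to 0.50, limma adjusted p = 0.980), and at 48 h against 4 h 0.31 (95% interval -0.21 to 0.83, limma adjusted p = 0.655). Kdr stood at the 46.9 percentile of the A chip.

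Flt1 had 3 probe sets on A and 1 on B, at the 6.18, 25.9, 41.8 and 37.6 percentiles of their chips. The only tested one, 1451756_at, had 39.4, 78.2 and 186.7 at 0 h, 64.7, 63.7 and 176.6 at 4 h, 56.1, 211.4 and 106.7 at 12 h, 64.9, 149.9 and 120.3 at 24 h, and 256.6, 55.6 and 44.6 at 48 h. No replicate was the highest throughout. Its difference at 24 h against 0 h was 0.22 (95% interval -0.96 to 1.40, limma adjusted p = 0.896). The dimmest Flt1 probe set, 1419300_at, was 1.8 to 24.6 on all arrays, below the pseudocount. The others ran from 14.8 to 91.0 (1454037_a_at) and from 47.8 to 389.6 (1440926_at, on B).

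Of the other genes of the family, Flt4, the receptor for VEGF-C, was dim, with mean intensities of 53.5 and 99.3 on its 2 probe sets, neither of which was tested. Vegfd, the ligand closest to VEGF-C, had means of 41.9 to 82.3 on 3 probe sets, not tested either. The neuropilins, co-receptors that also bind semaphorins, were brighter. Nrp1 means were 210.4 to 1101 on 4 probe sets, and Nrp2 means 235.9 to 845.9 on its 3 tested ones. None of the 7 tested neuropilin probe sets was called in any comparison over all arrays.

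The neuropilins followed the replicates. Nrp2 on 1435349_at had 634.9, 572.8 and 1895 at 0 h, 412.2, 539.6 and 2266 at 4 h and 433.7, 408.0 and 1686 at 12 h. It had 265.5, 285.6 and 1130 at 24 h and 319.7, 433.5 and 1406 at 48 h. Replicate 3 was 1130 or more and replicates 1 and 2 were 634.9 or less, a ratio of means of 3.89. On Nrp1 probe set 1448943_at replicate 3 lay at 1462 to 2333 and replicates 1 and 2 at 480.9 to 931.3. The ratio of replicate 3 to the others was 1.59 to 2.52 over the 4 Nrp1 probe sets.

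Calls of the neuropilins depended on how replicate 3 was treated, in a pair of fits chosen after their values were seen. In replicates 1 and 2 alone, 5 of the 7 probe sets were called at 24 h against 4 h, all lower at 24 h, where the fit called 12.7% of A and 5.98% of B probe sets. These were the 4 of Nrp1, at log2 differences of -1.15 to -0.80, and 1426528_at of Nrp2 (-0.80, limma adjusted p = 0.0325). With replicate 3 as a batch term, 3 were called lower: 1418084_at of Nrp1 (-0.72, limma adjusted p = 0.0447), and 1426528_at (-0.79, limma adjusted p = 0.00582) and 1435349_at (-0.77, limma adjusted p = 0.0205) of Nrp2. That fit called 9.55% of A and 3.77% of B probe sets. At 24 h against 0 h the same fits called 3 and 2 of the 7. There the fit of replicates 1 and 2 called 15% of A and 5.18% of B probe sets, and the batch fit 13% and 4.12%. On 1435349_at the 24 h value was below the 4 h value in each of the 3 replicates. Replicate 3 of Nrp1 was instead higher at 24 h than at 4 h on 1448943_at (2038.8 and 1462.3), 1448944_at (463.3 and 282.5) and 1457198_at (1307.5 and 1120.5). On 1418084_at of Nrp1 it was lower at 24 h (1065.8 and 1103.6), as on the tested Nrp2 probe sets.

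**Figure D4:**
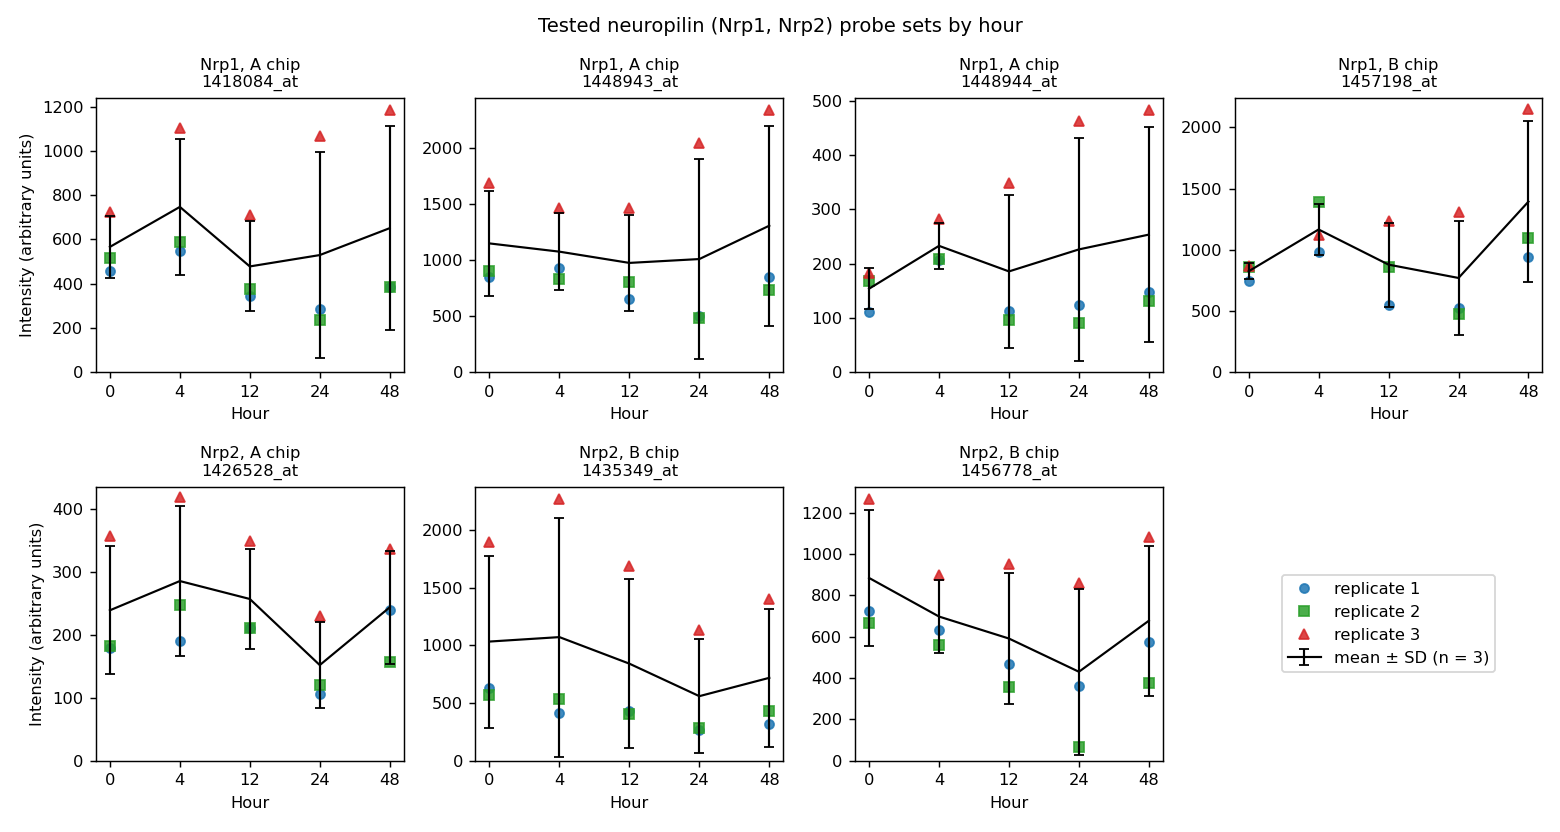
Intensity of the 7 tested Nrp1 and Nrp2 probe sets (vertical axes, arbitrary units, from 0) against hour (evenly spaced categories), with a point for each array and the mean ± SD over 3 arrays. Replicate 3 is the highest of the 3 at 5 of 5 hours on 6 probe sets and at 4 of 5 hours on Nrp1 1457198_at.

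Genes around the VEGF pathway were read from 5 lists, with 1 probe set for each gene, beside 12446 genes tested in all. Of those genes 1.58% were called higher and 0.932% lower at 24 h against 0 h, and 1.29% and 0.747% at 48 h against 0 h. The median log2 differences over all were -0.05 and -0.03. At 4 h and at 12 h against 0 h limma called 0 of all these genes, while 556 and 841 had an unadjusted p under 0.05. In this count Vegfc stands by its A probe set 1419417_at, and not by 1439766_x_at on B, which was called at 12 h.

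The products of the VEGF-C processing list cut the precursor to its active form or help to do so. Of its 6 tested genes 0 were called at 24 or 48 h against 0 h in limma, 1 at each hour had an unadjusted p under 0.05, and the median differences were -0.06 and -0.14. Ccbe1, which recruits the protease ADAMTS3 to VEGF-C, had means of 378.8 at 24 h and 400.2 at 0 h. Adamts3 itself had means of 162.5 at 24 h and 375.3 at 0 h, and was not called (log2 difference -0.94, adjusted p = 0.267). These 2 genes were named after their values were seen.

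Of 23 tested genes that signal below the receptors, 2 were higher and 1 lower at 24 h against 0 h, and the median difference was 0.31. Fyn, a SRC-family kinase, had a mean of 2875 at 24 h and 1223 at 0 h (log2 difference 1.17, adjusted p = 0.0148), and it was called at 48 h also (1.17, adjusted p = 0.0170). Mapkapk2, a kinase activated by p38, had 1286 at 24 h and 857.7 at 0 h (log2 difference 0.57, adjusted p = 0.0202). Plcg1, the phospholipase that binds activated KDR, was lower, at 3018 at 24 h and 4545 at 0 h (log2 difference -0.58, adjusted p = 0.0498). The median of the list at 48 h was 0.09. At 24 h against 4 h Mapkapk2 was called again, with the adaptor gene Shb (log2 difference 0.68, adjusted p = 0.0400), which was named after its value was seen.

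Hypoxia is a known inducer of Vegfa. Of 10 genes of the oxygen-sensing pathway, which include the hypoxia-inducible factors and their partners, 0 were higher and 1 lower at 24 h against 0 h. The lower one was Arnt2, a partner of these factors, at 1382 at 24 h and 2208 at 0 h (log2 difference -0.67, adjusted p = 0.0325). Of 18 tested hypoxia targets, 1 was higher and 0 lower at 24 h. This was P4ha1, a collagen prolyl hydroxylase subunit, at 1214 at 24 h and 649.7 at 0 h (log2 difference 0.88, adjusted p = 0.00594). At 48 h against 0 h 0 genes of either list were called in limma, and 2 of each had an unadjusted p under 0.05. At 24 h against 4 h P4ha1 was called again (log2 difference 0.92, limma adjusted p = 0.0078). Hif1an of the first list was also called higher there (0.79, limma adjusted p = 0.0470), and was named after its value was seen. Of all genes tested 0.972% were called higher in that comparison. Of 19 other angiogenic factors tested, among them Angpt1, Thbs1 and the PDGF genes, 0 were called at 24 or 48 h against 0 h in limma. There were 3 with an unadjusted p under 0.05 at each hour, and the medians were -0.27 and -0.18.

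The genes whose values lay closest to Vegfc were found by Pearson correlation of log2 intensities over the 15 arrays of a chip, as a description with no test. These arrays share hours and replicates. On A they were Gnb4 (r = 0.966), Ctsh (0.955), Id3 (0.924), Tmem176a (0.923) and Cstb (0.915). Over the 10 arrays of replicates 1 and 2 the values were 0.959, 0.945, 0.926, 0.925 and 0.938. On B, against 1440739_at, they were Mab21l3 (0.949), Cercam (0.900), Gnb4 (0.896), Tcaf1 (0.894) and Pknox2 (0.889), and 0.939, 0.920, 0.859, 0.919 and 0.933 over replicates 1 and 2. Gnb4, a G protein beta subunit, was in the first 5 on both chips.

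The means of all 10 probe sets were lower at 24 h than at 0 h, by a smaller share than Vegfc. They were chosen for values that followed Vegfc over these same arrays, so their fall is no separate result. Id3, an inhibitor of muscle and other basic helix-loop-helix factors, had means of 1069 ± 190.4 at 24 h and 4171 ± 1093 at 0 h (SD, n = 3 each). Ctsh, a lysosomal protease, had 300.5 ± 22.1 at 24 h and 588.9 ± 67.8 at 0 h. Gnb4 on A had 836.2 ± 35.5 at 24 h and 1813 ± 272.3 at 0 h. Cstb, a cathepsin inhibitor, had 3817 ± 194.4 at 24 h and 5275 ± 55.7 at 0 h, the smallest fall of these on A.

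**Figure D5:**
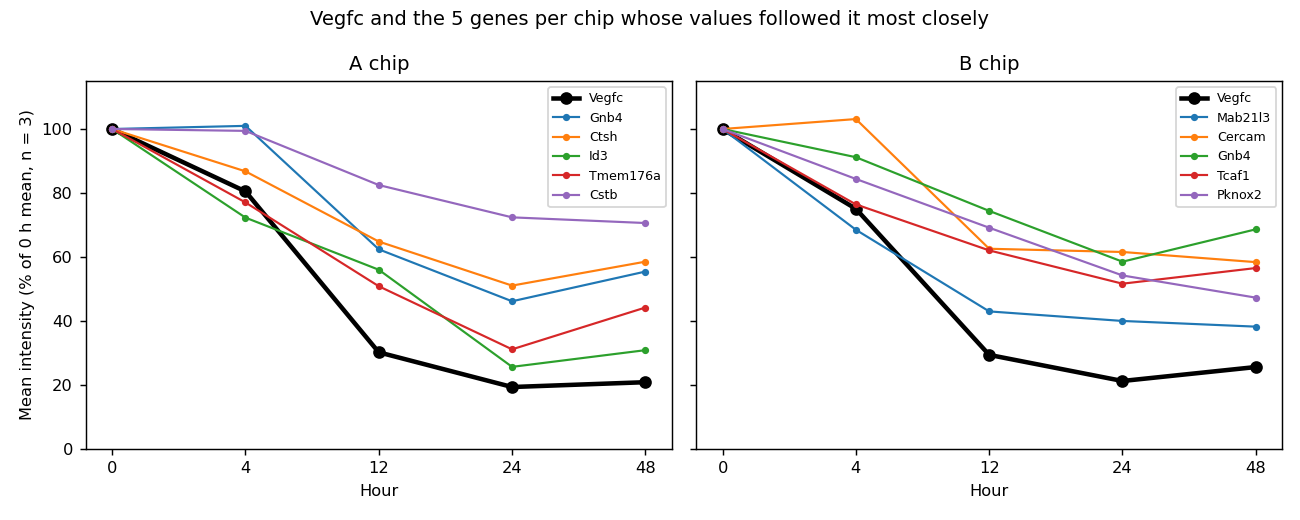
Hour means as a percentage of the 0 h mean (vertical axis, from 0, 3 arrays a point) against hour (evenly spaced categories) for Vegfc, in black, and the 5 genes on each chip whose log2 values correlated best with it. Vegfc on A stands at 30.2% at 12 h and 19.3% at 24 h, below the other genes drawn at both hours.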

How the data were processed

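Transcript levels were measured on 30 arrays, 15 of each chip, of 5 hours with 3 replicates. The authors deposited linear intensities for each probe set and array, unpooled. RNA was handled by Affymetrix's standard protocol, per the labels. How probes were summarised, and whether they were detected, is not stated in those labels. The deposited intensities were already scaled as whole arrays (2%-trimmed mean 500.1 to 500.2), so no scaling was added, and these values cannot show a change in RNA content per cell. Probe sets were named from GEO's platform annotation through a RefSeq table, and the 64 controls of each chip were left out.

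A pseudocount of 29 on A and 54 on B, the 20th percentile of the chip, was added before log2, which shrinks the differences of dim probe sets. Tests covered the brightest 60% by mean log2 (13576 probe sets on A and 13507 on B). Hour was the factor in a fit of the 15 arrays of a chip with limma 3.58.1 (lmFit, contrasts.fit, eBayes with trend) under R 4.3.3. Tests were two-sided, with Benjamini-Hochberg adjustment for each chip and comparison, and without a replicate block. The fit was also run on simulated data with independent noise on each array. Those data had no replicate effect, so they cannot show how the fit treats replicate 3. Intervals are 95%.

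The members and gene lists were chosen with earlier results of these data known. Named were all member probe sets, up to 4 called genes of each pathway list with the smallest adjusted p, all other family genes, marker genes at background and the brightest, and the 5 genes on each chip most correlated with Vegfc. Exceptions are stated. A list gene was represented by its brightest probe set, from A where one was tested there. Some list genes were not analysed here. Alternatives covered normalization, pseudocount, filter, replicate block, replicate 3 as a batch, replicates 1 and 2 alone, only the hours compared, eBayes without trend, array weights and leaving out each array. For the neuropilins those on replicate 3 were added after seeing the data. Motifs were searched with Python 3.11.15.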

Additional observations from a re-analysis of the deposited data

How the results depend on the processing

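Member differences were recomputed under up to 28 alternatives, 15 of which left out an array. Where the filter removed a probe set the number was lower, 27 for Kdr and 1419417_at of Vegfc and 18 for Flt1. None reversed while called. Lost and gained calls were counted without 12 h against 0 h: 22 differences lost their call and 2 gained one, and all 22 were of Vegfc. At 12 h against 0 h, as a description, 1439766_x_at of Vegfc was called in 16 of 28 alternatives and not called in 12. There 1419417_at was called in 4 of 27 and 1440739_at in 5 of 28. Of uncalled differences 64 changed sign. The number of VEGF probe sets called was 3 at 24 h against 4 h and 1 to 3 without each array in turn. At 48 h against 4 h it was 3, and 0 to 3 without each array in turn, while a fit of only the 6 arrays compared called 0. That fit has fewer arrays to estimate the spread. With eBayes without trend, 1440739_at was not called at 48 h against 4 h (Vegfc, adjusted p = 0.0514). Replicates 1 and 2 alone called 1 probe set other than Vegfc against 0 h at 24 h and 1 at 48 h, in place of 0, both 1420909_at of Vegfa, while calling 15% and 12.4% of A probe sets. The counts at 4 h against 0 h (without Vegfc) and at 48 h against 24 h were 0 under all alternatives. The upper 40% of probe sets left out 1419417_at and called 2 at each later hour against 4 h. With 4 times the pseudocount the described Vegfc difference at 12 h on 1419417_at was -1.18. Arrays with the same replicate number were alike in part. After the hour means were taken out, their lowest correlation was 0.0443 on A and 0.00258 on B. Within replicate 3 on A it was 0.475 to 0.726. In all, 11 of 15 A and 10 of 15 B arrays correlated best with their own number. The main fit has no replicate term, so differences between replicates enter its SE. For Vegfb at 24 h against 0 h the SE was 0.35 there and 0.15 with replicate 3 as a batch term. Neither fit called it (limma adjusted p = 0.729 and 0.199). With the replicate block, 3 VEGF probe sets were called at 24 h and 3 at 48 h against 4 h, and the block changed no other count. It called 8.65% of A and 3.26% of B probe sets at 24 h, and 6.53% and 2.67% at 48 h against 4 h.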
